A study of Mus musculus with 6 samples.

Results

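The activity-regulated immediate early genes described here are Egr1, Fos, Jun, Junb, Arc, Nptx2 and Homer1. They were chosen by name, with earlier results of these data known, and matched to the gene symbols of the deposited table. All 7 had a row, among 15703 genes in all. RNA was measured by sequencing of whole neocortex from 6 C57BL/6 mice on postnatal day 0, the day of birth. In 3 mice, called cKO 1, cKO 2 and cKO 3, both alleles of the transcription factor gene Tcf4 were floxed and 1 allele of Emx1 carried Cre recombinase (Tcf4 f/f; Emx1Cre/+). The other 3 mice, WT 1, WT 2 and WT 3, are labelled WT, and whether they carried Cre or floxed alleles is not given in the sources used here. Emx1 marks the cortical progenitor lineage that makes projection neurons and astroglia. Most cortical interneurons, as well as microglia and vessel cells, arise elsewhere and lie largely outside the reach of this Cre. The purpose given for the series is to see how gene expression changes once Tcf4 is lost.

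Immediate early genes are switched on within minutes of a stimulus, in neurons chiefly by calcium entry and by kinase cascades that act on transcription factors already present in the nucleus. Some encode transcription factors that then drive later genes. Egr1 encodes a zinc finger factor, and the products of Fos, Jun and Junb pair up to form the dimeric factor AP-1. Others act at synapses. Arc encodes a protein that promotes the removal of AMPA-type glutamate receptors from the membrane, Homer1 a scaffold of the postsynaptic density with a short inducible isoform, and Nptx2 a secreted pentraxin that gathers AMPA receptors. Cortical activity is still immature on the day of birth.

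Tcf4 itself averaged 57.4 ± 2.76 FPKM in cKO and 74.1 ± 2.45 FPKM in WT (SD, n = 3 each; limma adjusted p = 0.00411), a value over all exons and all cells of the tissue. FPKM is a count of fragments scaled by exon length and by a library size. Reads in listed genes, recovered from the FPKM values and therefore approximate, numbered 25490000 to 26720000 per library in cKO and 25360000 to 28760000 in WT. These totals exceed the library sizes by which the values were scaled, and the median-ratio size factor of the values was 1.003 in every library. How the authors set the library size is not given, so a level may differ from a plain FPKM by a factor common to all genes of a library. All 10 markers of projection neurons, such as Neurod6 and Tbr1, had a row, and they summed to 761 to 801 FPKM in cKO and 724 to 769 FPKM in WT. Neurod6 made the largest part of these sums, and the single markers differed in direction, as given below. A gene was called when its adjusted p from limma (Benjamini-Hochberg adjustment over the 15703 genes, n = 3 per group) was under 0.05.

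Arc, Nptx2 and Egr1 were lower and Jun was higher in the cKO neocortex, while Fos, Junb and Homer1 did not pass the test. Arc averaged 3.90-fold less, Egr1 2.98-fold less and Nptx2 1.98-fold less in cKO, and Jun averaged 1.46-fold more. Thus 3 of the 7 genes were called lower, against 8.59% of all genes tested, and 1 of the 7 was called higher, against 7.22% of all genes tested. The groups did not overlap in 4 of the 7, against 37.3% of all genes. The median log2 change of the 7 on the log2(FPKM + 1) scale was −0.25, the value of Fos, against 0.0017 over all genes. Because the 7 genes and the lists below were chosen with earlier results known, such shares are a description and not an independent test. Since the tissue was measured in bulk, fewer cells of a type and less RNA per cell cannot be told apart.

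**Figure D1:**
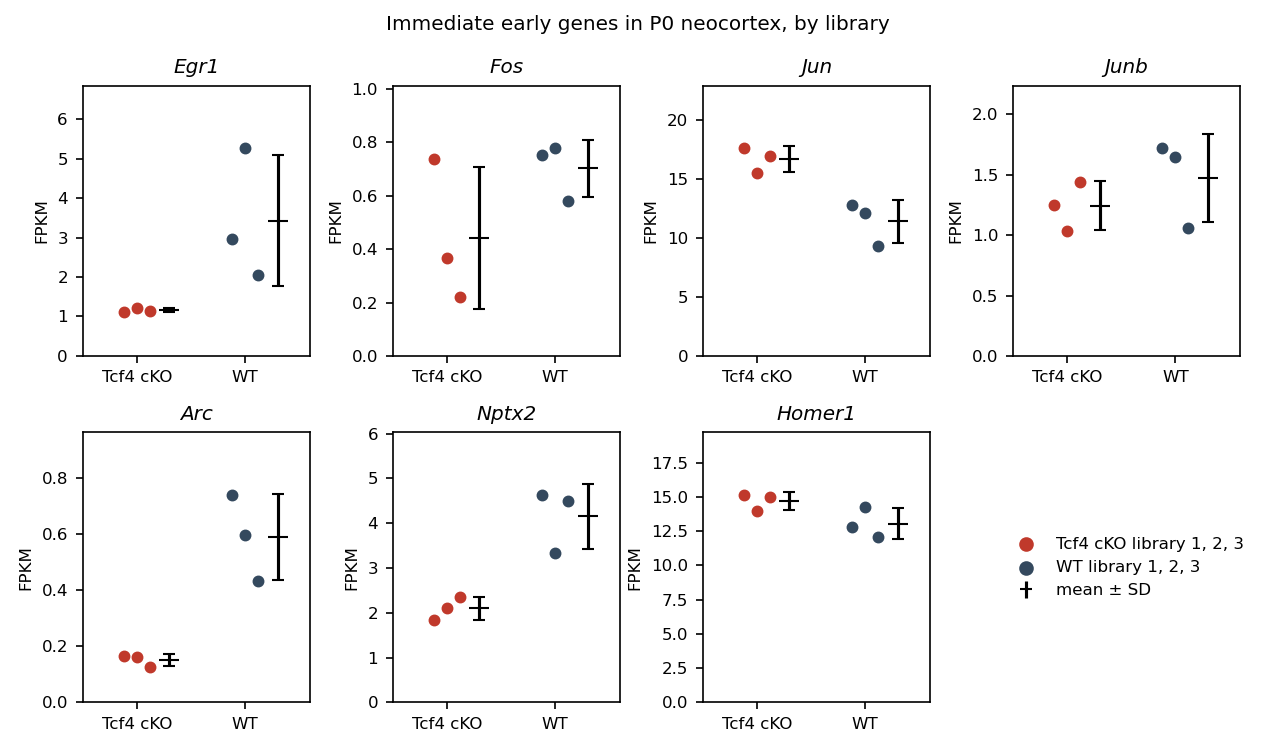
FPKM of each gene (vertical axes, each starting at 0) in the 3 Tcf4 cKO and 3 WT libraries, with points for libraries in replicate order and a bar for the mean ± SD. For Egr1, Arc and Nptx2 every cKO point lies under every WT point, for Jun every cKO point lies over every WT point, and the groups overlap for Fos, Junb and Homer1.

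Egr1 (ENSMUSG00000038418, chromosome 18, 34859823 to 34864984, plus strand, mm10) was at 1.12, 1.21 and 1.13 FPKM in cKO 1 to 3, against 2.97, 5.26 and 2.06 FPKM in WT 1 to 3. The cKO libraries lay close together, whereas the WT libraries were spread, with WT 2 highest. The mean was 1.153 ± 0.0506 FPKM in cKO and 3.43 ± 1.65 FPKM in WT, a log2 change of −0.98 on the log2(FPKM + 1) scale (SE 0.214, 95% interval −1.46 to −0.49, limma adjusted p = 0.0158). By this change Egr1 stood 93rd from the lowest of the 15703 genes. These levels rested on about 119, 132 and 117 reads in cKO and 347, 554 and 216 reads in WT. The call was lost without cKO 2 (limma adjusted p = 0.0568) and without WT 1 (0.0509). Without WT 2, the library with the most Egr1, the log2 change was −0.69 and the limma adjusted p was 0.00554.

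Egr3, which encodes a zinc finger factor of the same family, also fell. It was at 0.627, 0.436 and 0.701 FPKM in cKO 1 to 3, against 2.17, 1.38 and 1.33 FPKM in WT 1 to 3, with no overlap (2.77-fold lower, limma adjusted p = 0.00448). For both Egr1 and Egr3 each cKO value was under the lowest WT value. Egr2 and Egr4, the remaining genes of the family, had no row in the table and are not analysed here.

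Among the AP-1 genes, Jun moved in the direction opposite to Egr1. Jun (ENSMUSG00000052684, chromosome 4, 95049034 to 95052222, minus strand) was at 17.6, 15.5 and 17.0 FPKM in cKO 1 to 3, against 12.8, 12.1 and 9.30 FPKM in WT 1 to 3. Every cKO library exceeded every WT library, and WT 3 was the lowest. The mean was 16.7 ± 1.09 FPKM in cKO and 11.4 ± 1.85 FPKM in WT, 1.46-fold higher, with a log2 change of 0.52 (SE 0.106, 95% interval 0.28 to 0.76, limma adjusted p = 0.00982). Jun kept its call without each library in turn, with a limma adjusted p of at most 0.0478 (without cKO 1). It stood 279th from the highest log2 change of the 15703 genes. The antisense gene Junos shares 232 bases, or 7.28%, of its exon length, and reads of the pair cannot be separated there because the strand setting of the counting is not given.

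Fos, the usual partner of Jun in AP-1, did not pass. Fos (ENSMUSG00000021250, chromosome 12, 85473890 to 85477273, plus strand) was at 0.737, 0.367 and 0.220 FPKM in cKO 1 to 3, against 0.751, 0.778 and 0.580 FPKM in WT 1 to 3. The libraries cKO 2 and cKO 3 lay under all WT libraries, and cKO 1 lay within the WT range. The mean was 0.441 ± 0.266 FPKM in cKO and 0.703 ± 0.107 FPKM in WT (log2 change −0.25, SE 0.118, 95% interval −0.52 to 0.0075, limma adjusted p = 0.165). At this level the values rested on about 41, 21 and 12 reads in cKO and 46, 43 and 32 reads in WT. Fos averaged 1.59-fold less in cKO, and adding 1 FPKM before the log understates the change of so low a gene. Under the alternatives that kept all libraries its log2 change ranged from −0.81 to −0.21, and it did not pass. Without cKO 1 the log2 change was −0.40 and Fos was called lower (limma adjusted p = 0.0289).

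Junb (ENSMUSG00000052837, chromosome 8, 84974484 to 84978718, minus strand), whose product is a weaker activator than that of Jun in AP-1 dimers, did not pass either. It was at 1.249, 1.037 and 1.444 FPKM in cKO 1 to 3, against 1.72, 1.65 and 1.06 FPKM in WT 1 to 3. The groups overlapped, since WT 3 was nearly as low as cKO 2. The mean was 1.24 ± 0.204 FPKM in cKO and 1.47 ± 0.363 FPKM in WT (log2 change −0.13, 95% interval −0.40 to 0.13, limma adjusted p = 0.469). The gene Prdx2 on the opposite strand shares 173 bases, or 7.52%, of its exon length.

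The start regions of the 3 AP-1 genes are shown because Jun rose while Fos and Junb did not pass. Each line holds the 250 bases before the RefSeq start site, 5′ to 3′ in the direction of the gene, from RefSeq on GRCm38.p6, which is mm10. They lie at chr4:95052223-95052472 (minus strand) for Jun, chr12:85473640-85473889 (plus strand) for Fos and chr8:84978749-84978998 (minus strand) for Junb. Capitals mark matches, on either strand, to the E-box CANNTG that E-proteins such as the Tcf4 product bind, to TGACG, the core of the cyclic AMP response element, to the AP-1 site TGANTCA, to the TATA box TATAAA and to the CArG box of serum response factor.
Jun: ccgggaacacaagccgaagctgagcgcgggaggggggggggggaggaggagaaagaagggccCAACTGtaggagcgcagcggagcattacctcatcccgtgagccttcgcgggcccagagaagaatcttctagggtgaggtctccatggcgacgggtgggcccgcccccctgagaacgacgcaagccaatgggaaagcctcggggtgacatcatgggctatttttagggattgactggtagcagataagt
Fos: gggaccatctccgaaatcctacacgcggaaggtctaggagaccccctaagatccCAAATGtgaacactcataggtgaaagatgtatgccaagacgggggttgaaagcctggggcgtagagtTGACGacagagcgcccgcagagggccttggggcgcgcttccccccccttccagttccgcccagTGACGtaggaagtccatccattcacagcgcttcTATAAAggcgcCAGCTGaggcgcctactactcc
Junb: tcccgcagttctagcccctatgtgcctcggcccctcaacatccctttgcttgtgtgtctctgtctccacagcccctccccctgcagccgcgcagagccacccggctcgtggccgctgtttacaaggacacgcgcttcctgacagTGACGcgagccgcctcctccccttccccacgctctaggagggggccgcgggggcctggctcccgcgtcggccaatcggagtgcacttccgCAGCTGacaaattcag

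The Fos window held 2 E-boxes (CAAATG, 196 to 191 bases before the start, and CAGCTG, 22 to 17 bases before it), the response element core at 129 to 125 and at 66 to 62 bases before the start, and a TATA box at 33 to 28 bases before it. The Jun window held 1 E-box, CAACTG, 188 to 183 bases before the start, and no match to the other 4 motifs as spelled. It also held TGACATCA, a run close to TGACG and TGANTCA that neither spelling matches. Only the spellings given were counted, so the lack of a match does not show that related sites are absent. In the Junb window were 1 E-box, CAGCTG, 16 to 11 bases before the start, and 1 response element core at 106 to 102 bases before it. None of these matches overlapped another motif. Homer1 has 2 RefSeq start sites. Its upstream window held 1 E-box and 3 response element cores, and its downstream window held 5 E-boxes. Of 32817 windows of the same length before RefSeq start sites, 66.2% held an E-box, 17.7% the response element core, 12.4% a TATA box, 6.75% an AP-1 site and 1.47% a CArG box. A match is a run of letters and was not tested as a binding site. Windows for 4 of the 7 genes were matched by symbol, and Egr1, Arc and Nptx2 were not among them.

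Of the other AP-1 genes in a list of 12, 6 had a row. Fosl2, which encodes a Fos-related antigen, fell (11.6, 8.65 and 7.37 FPKM in cKO 1 to 3, against 18.0, 17.2 and 14.8 FPKM in WT 1 to 3, limma adjusted p = 0.00365). Mafk, which encodes a small Maf protein, rose, with 4.68 ± 0.450 FPKM in cKO and 3.45 ± 0.365 FPKM in WT (limma adjusted p = 0.0313). The call of Mafk was lost without every library except WT 2, for example without cKO 1 (limma adjusted p = 0.0630). Fosl1, Jdp2, Maff and Mafg did not pass. In each direction 1 gene of the 6, or 16.7%, was called, against 8.59% lower and 7.22% higher among all genes. The list had a median log2 change of −0.031. Fosb, Jund, Atf3, Batf, Batf2 and Batf3 had no row.

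Arc (ENSMUSG00000022602, chromosome 15, 74669083 to 74672570, minus strand) had the largest fold change of the 7 genes and the lowest level. It was at 0.166, 0.162 and 0.127 FPKM in cKO 1 to 3, against 0.741, 0.599 and 0.433 FPKM in WT 1 to 3. The highest cKO library lay far under the lowest WT library. The mean was 0.152 ± 0.0215 FPKM in cKO and 0.591 ± 0.154 FPKM in WT, 3.90-fold lower (log2 change −0.46, SE 0.0765, 95% interval −0.63 to −0.29, limma adjusted p = 0.00347). These values rested on about 12, 12 and 9 reads in cKO and 59, 43 and 31 reads in WT. Adding 1 FPKM before the log understates the change of so low a gene, and the log2 change was −1.44 with 0.1 FPKM added and −1.89 with limma-voom on the approximate reads. Arc kept its call without each library in turn (limma adjusted p of at most 0.0171).

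Nptx2 (ENSMUSG00000059991, chromosome 5, 144545902 to 144557478, plus strand) was at 1.83, 2.11 and 2.35 FPKM in cKO 1 to 3, against 4.63, 3.32 and 4.49 FPKM in WT 1 to 3. The groups were apart, and WT 2 was the lowest WT library. The mean was 2.10 ± 0.258 FPKM in cKO and 4.15 ± 0.719 FPKM in WT, 1.98-fold lower (log2 change −0.73, SE 0.116, 95% interval −0.99 to −0.47, limma adjusted p = 0.00290). It kept its call without each library in turn (limma adjusted p of at most 0.0176). Its paralogue Nptx1 averaged 3.81 FPKM in cKO and 4.38 FPKM in WT (limma adjusted p = 0.339), and the pentraxin receptor gene Nptxr averaged 20.3 FPKM in cKO and 25.8 FPKM in WT (limma adjusted p = 0.0619). Neither passed.

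Homer1 (ENSMUSG00000007617, chromosome 13, 93299635 to 93405129, plus strand) was at 15.1, 13.97 and 14.97 FPKM in cKO 1 to 3, against 12.8, 14.3 and 12.04 FPKM in WT 1 to 3. The groups overlapped through cKO 2 and WT 2. The mean was 14.7 ± 0.636 FPKM in cKO and 13.04 ± 1.14 FPKM in WT (log2 change 0.16, SE 0.0758, 95% interval −0.0054 to 0.33, limma adjusted p = 0.166). The value covers all exons of the gene, 11976 bases, so the short inducible isoform and the constitutive long isoforms were not told apart. Homer2, a paralogue, was higher in cKO (7.75 ± 0.146 FPKM in cKO and 5.13 ± 0.302 FPKM in WT, limma adjusted p = 0.00131), and Homer3 did not pass.

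**Figure D2:**
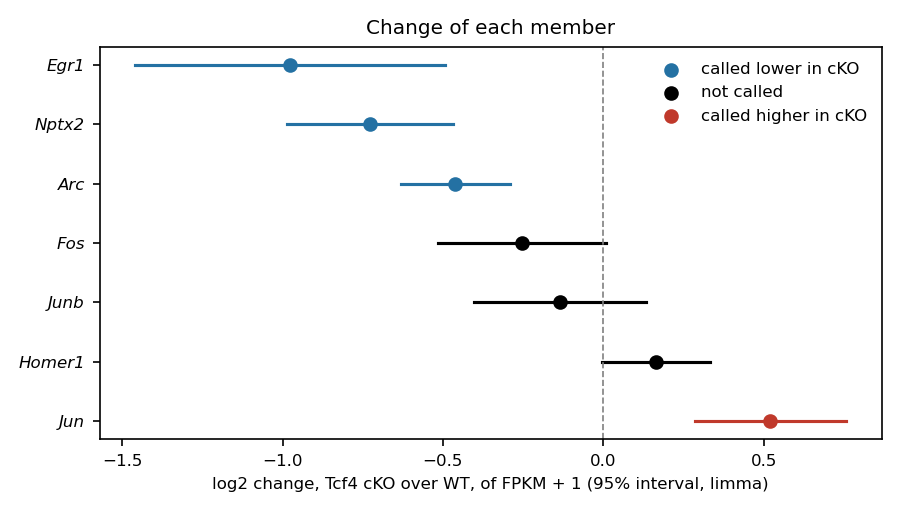
Log2 change of FPKM + 1 in Tcf4 cKO over WT (horizontal axis) for each of the 7 genes, as points with 95% intervals from limma, coloured by call. The intervals of Egr1, Nptx2 and Arc lie under 0, that of Jun lies over 0, and those of Fos, Junb and Homer1 hold 0.

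By level per length, Jun and Homer1 stood highest in both groups. In cKO the order of mean FPKM was Jun, Homer1, Nptx2, Junb, Egr1, Fos and Arc. Among these, only Junb and Egr1 had overlapping ranges with a neighbour (1.037 to 1.444 FPKM for Junb and 1.12 to 1.21 FPKM for Egr1). In WT the order was Homer1, Jun, Nptx2, Egr1, Junb, Fos and Arc. The neighbouring ranges overlapped there for Homer1 and Jun, for Nptx2 and Egr1, and for Fos and Arc. Egr1 thus stood above Junb in WT and within its range in cKO. Of the 7 genes, 5 had a mean of at least 1 FPKM over the 6 libraries, and Fos and Arc did not.

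The 7 genes did not order the libraries of a group alike. After the group means were removed, Jun and Junb moved together over the 6 libraries (Pearson r = 0.934 on log2(FPKM + 1)), and so did Jun and Arc (r = 0.865) and Egr1 and Homer1 (r = 0.860). Nptx2 went against Egr1 (r = −0.773) and Homer1 (r = −0.744). Egr1 varied little between the cKO libraries (1.12 to 1.21 FPKM), against 2.06 to 5.26 FPKM in WT. Its r values therefore rested mainly on the WT libraries. In WT 2, for instance, Egr1 and Homer1 were at their highest and Nptx2 at its lowest WT level. Of the 21 pairs, 15 had an r above 0 and 6 below. These values describe 6 libraries that share depth and batch between genes, and no test was made.

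The genes most like each of the 7, by Pearson r over the 6 libraries on log2(FPKM + 1) among genes with a mean of at least 1 FPKM, were as follows. Npy1r, which encodes a neuropeptide Y receptor, came first for Egr1 (r = 0.996) and fell to 5.81 ± 0.207 FPKM in cKO, against 8.83 ± 1.73 FPKM in WT (limma adjusted p = 0.0136). For Arc, Rhoq, Raver2 and Cnksr2 came first (r = 0.995 each), and all 3 fell. For Nptx2 these were Slc7a14 (r = 0.998), the pseudogene Gm10925 (0.997) and Grem1 (0.996), all of which fell. For Jun they were Pnmal2 (r = 0.999), Tln2 (0.997) and Map3k4 (0.996), all of which rose. Hid1 came first for Fos (r = 0.990), Pcdhac2 for Junb (0.992) and Inip for Homer1 (0.994), and none of these 3 passed limma's test. With 6 libraries and 15703 genes a high r is easily found, so the lists are a description. The difference between the groups was left in these r values. Genes picked as most like a called gene therefore move in its direction by the way they were picked.

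Other genes that neurons switch on rapidly moved in both directions. The 3 lists of further AP-1, transcription factor and effector genes together held 53 genes with a row, of which 19 (35.8%) were called lower and 8 (15.1%) higher, against 8.59% and 7.22% of all genes. Their median log2 change was −0.021, against 0.0017 over all genes. Since these lists were chosen with earlier results of these data known, the shares are a description. Of 21 further rapid transcription factor genes 19 had a row, and 8 fell, 3 rose and 8 did not pass. Nr4a3 and Nr4a2, which encode orphan nuclear receptors, were lower, Nr4a3 with 9.32, 11.6 and 7.17 FPKM in cKO 1 to 3, against 32.4, 30.7 and 25.7 FPKM in WT 1 to 3 (3.16-fold lower, limma adjusted p = 0.000131). Nr4a2 averaged 15.2 ± 2.15 FPKM in cKO and 33.4 ± 6.61 FPKM in WT (limma adjusted p = 0.00111). The Krüppel-like factor gene Klf9 fell 3.19-fold, with 2.55 ± 0.261 FPKM in cKO and 8.12 ± 1.48 FPKM in WT (limma adjusted p = 8.76e-05). Egr3, Klf10, Myc, Nr4a1 and Ier2 were the other members that fell.

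In the same list Bhlhe40, Klf2 and Mxi1 rose. Bhlhe40, a repressor of the basic helix-loop-helix class, averaged 6.23 ± 0.193 FPKM in cKO and 3.46 ± 0.248 FPKM in WT (limma adjusted p = 0.000361). Klf2, which is also a factor of endothelial cells, averaged 2.87 ± 0.374 FPKM in cKO and 1.47 ± 0.320 FPKM in WT (limma adjusted p = 0.00469). Mxi1 averaged 10.6 ± 0.452 FPKM in cKO and 7.43 ± 1.81 FPKM in WT (limma adjusted p = 0.0356), and lost its call without every library except WT 2 (up to 0.105 without cKO 2). Npas4, a factor induced by neuronal activity in particular, averaged 0.854 FPKM in cKO and 0.859 FPKM in WT and did not pass (limma adjusted p = 0.973). The list's median log2 change was −0.060. Without cKO 1, cKO 2 or WT 1, 5 of its members were called lower.

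Rapid effector genes, a list of 29 of which 28 had a row, were called lower in 10 cases and higher in 4, and 14 did not pass. As shares of the 28, 35.7% were called lower and 14.3% higher, against 8.59% and 7.22% of all genes. The largest fold change was that of Dusp5, which encodes a phosphatase of ERK kinases. It was at 0.137, 0.150 and 0.157 FPKM in cKO 1 to 3, against 2.55, 1.31 and 2.17 FPKM in WT 1 to 3 (13.6-fold lower, limma adjusted p = 0.000183). At so low a cKO level the size of this fold is uncertain, and the log2 change with 1 FPKM added was −1.37. Dusp6, a further ERK phosphatase gene, averaged 6.85 ± 0.725 FPKM in cKO and 15.5 ± 1.75 FPKM in WT (limma adjusted p = 0.000114). Ier5, an immediate early response gene, averaged 8.94 ± 0.807 FPKM in cKO and 23.2 ± 1.95 FPKM in WT (limma adjusted p = 1.22e-05). Plk2, which encodes a polo-like kinase of synapses, averaged 74.5 ± 1.95 FPKM in cKO and 100.1 ± 4.07 FPKM in WT (limma adjusted p = 0.00144). Sik1, Ppp1r15a, Trib2, Dusp4, Gadd45a and Plk3 also fell.

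The effector genes that rose were Ccn1, Rgs2, Btg1 and Ier5l. Ccn1, which encodes a secreted matricellular protein, was at 5.61, 4.57 and 4.23 FPKM in cKO 1 to 3, against 1.71, 2.95 and 1.21 FPKM in WT 1 to 3 (2.45-fold higher, limma adjusted p = 0.00643). Rgs2, a regulator of G protein signalling, averaged 6.82 ± 0.825 FPKM in cKO and 4.23 ± 0.593 FPKM in WT (limma adjusted p = 0.00562). Btg1 lost its call without cKO 2, cKO 3 or WT 1 (limma adjusted p of up to 0.0881) and Ier5l without cKO 3, WT 1 or WT 3 (up to 0.0935). Dusp1, Gadd45b and Zfp36 were among those that did not pass. The list's median log2 change was −0.0026. Without cKO 3 or WT 1, 2 of its members were called higher.

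**Figure D3:**
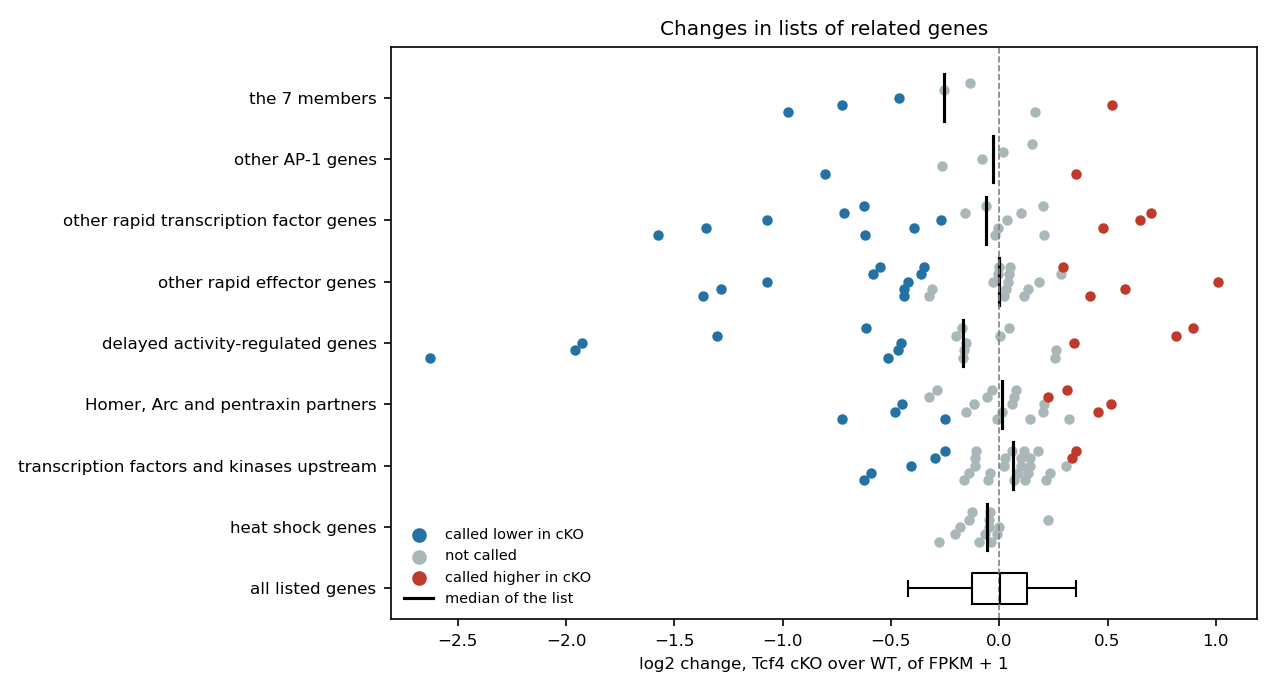
Log2 change of FPKM + 1 in Tcf4 cKO over WT (horizontal axis) for each gene with a row in 8 lists, coloured by call, with a bar at each list's median and a box for all 15703 genes (quartiles, whiskers at the 5 and 95 percentiles, −0.42 and 0.35). In the lists of rapid and delayed genes, called genes lie on both sides of 0, and the list medians lie between −0.25 and 0.064.

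Delayed activity-regulated genes, a list of 23 of which 20 had a row, held 8 that fell, 3 that rose and 9 that did not pass, with a median log2 change of −0.17. As shares of the 20, 40% were called lower and 15% higher, against 8.59% and 7.22% of all genes. This list too was chosen with earlier results known, so the shares are a description. Vgf, which encodes a neuropeptide precursor, averaged 1.98 ± 0.238 FPKM in cKO and 10.3 ± 0.427 FPKM in WT (5.21-fold lower, limma adjusted p = 9.26e-07). Syt4, a synaptotagmin gene, averaged 66.0 ± 4.41 FPKM in cKO and 165 ± 11.0 FPKM in WT (limma adjusted p = 5.24e-06). The neurofilament genes Nefl and Nefm, whose exons overlap on opposite strands, Grasp, Plat, Inhba and Sst also fell. The secretogranin gene Scg2 rose, with 20.5 ± 1.82 FPKM in cKO and 10.6 ± 1.46 FPKM in WT (limma adjusted p = 0.000337), as did Stac (2.09 ± 0.351 FPKM in cKO and 0.759 ± 0.226 FPKM in WT, limma adjusted p = 0.00156). Nrn1 rose and lost its call without WT 1 (limma adjusted p = 0.0542). Without that library, 2 members were called higher. Bdnf, a neurotrophin gene, averaged 0.293 FPKM in cKO and 0.459 FPKM in WT and did not pass (limma adjusted p = 0.0770).

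Of 30 transcription factor and kinase genes that act upstream of immediate early genes, 5 fell, 2 rose and 23 did not pass, with a median log2 change of 0.064. The share called higher, 6.67%, was near the 7.22% of all genes, and 16.7% were called lower, against 8.59% of all genes. Camk4, a nuclear kinase that acts on the CREB factor, averaged 8.25 ± 0.411 FPKM in cKO and 12.97 ± 1.19 FPKM in WT (limma adjusted p = 0.00113). Mef2c, an activity-dependent factor, averaged 65.0 ± 1.498 FPKM in cKO and 86.7 ± 2.68 FPKM in WT (limma adjusted p = 0.00141), and Camk2a averaged 5.12 ± 0.559 FPKM in cKO and 8.46 ± 1.23 FPKM in WT (limma adjusted p = 0.00445). Camk2b lost its call without cKO 2, cKO 3, WT 1 or WT 2 (limma adjusted p of up to 0.136), and Crtc3 was the fifth gene that fell. Creb1 and Mkl2 were the genes called higher, with limma adjusted p of 0.0224 and 0.0368. Creb1 lost its call without every library except WT 2 (up to 0.0922 without WT 1), and Mkl2 without cKO 1, cKO 2, cKO 3 or WT 3 (up to 0.108 without cKO 2). Without cKO 1, cKO 2, cKO 3 or WT 3, 0 of the 30 were called higher, against 5 without WT 2. Limma-voom called 4 higher, and the replicate block with a length and GC correction 1. Without cKO 2, cKO 3 or WT 1, 3 were called lower.

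Among 23 partners of the Arc, Homer and pentraxin proteins, 4 fell, 4 rose and 15 did not pass, with a median log2 change of 0.014. In each direction this was 17.4%, against 8.59% lower and 7.22% higher among all genes. With a length and GC correction 7 were called lower and 3 higher, and with the replicate block added 7 lower and 2 higher. Itpr1, the inositol trisphosphate receptor gene, was at 9.02, 8.92 and 7.95 FPKM in cKO 1 to 3, against 14.6, 16.9 and 13.4 FPKM in WT 1 to 3 (limma adjusted p = 0.000682). Grm5, the metabotropic glutamate receptor gene whose product Homer binds, averaged 18.3 ± 1.20 FPKM in cKO and 25.4 ± 2.16 FPKM in WT (limma adjusted p = 0.00475). Ryr2, a calcium release channel gene, and Camk2b fell too. Homer2, Dnm3, which encodes a dynamin, and the AMPA receptor genes Gria2 and Gria4 rose. Gria2 averaged 86.9 ± 7.07 FPKM in cKO and 69.8 ± 4.48 FPKM in WT (limma adjusted p = 0.0228) and lost its call without cKO 1, cKO 2 or WT 1 (up to 0.0970). Gria4 lost its call without each of the 6 libraries (up to 0.124 without cKO 1). Without cKO 1, cKO 2 or WT 1, 2 members were called higher.

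Markers of several cell types differed between the groups. The shares called lower were 40% of projection neuron, 87.5% of astrocyte, 44.4% of microglia, 37.5% of interneuron and 20% of blood cell markers. Among all genes 8.59% were called lower, and the groups did not overlap in 37.3%. Of the 10 projection neuron markers 4 were called lower (1 without cKO 2, cKO 3 or WT 1, and 2 under quantile normalisation), while the sums of the 10 overlapped between the groups. The largest part of these sums was Neurod6, with 351 ± 22.4 FPKM in cKO and 296 ± 21.8 FPKM in WT (limma adjusted p = 0.0507). An overlap of the sums therefore does not show that the single markers were unchanged. Of 8 astrocyte markers with a row 7 were called lower, and the list summed to 81.4 to 99.9 FPKM in cKO and 126 to 160.3 FPKM in WT. Of 9 microglia markers 4 were called lower (1 without WT 1), with sums of 20.1 to 27.7 FPKM in cKO and 31.5 to 37.5 FPKM in WT. Of 8 interneuron markers 3 were called lower (1 without cKO 1 or WT 1), with sums of 67.9 to 70.6 FPKM in cKO and 78.8 to 83.2 FPKM in WT. Of 5 blood cell markers only 1, Hbb-bs, was called lower (0 without cKO 1, cKO 3 or WT 1), with sums of 68.0 to 85.7 FPKM in cKO and 86.3 to 90.7 FPKM in WT. No gene of these 5 lists was called higher by limma with all 6 libraries, although 1 projection neuron marker was under several alternatives, such as a pseudocount of 0.5, and no marker with a row was at 0 in all 6 libraries. The part of these cells in the changes of Egr1, Arc, Nptx2 and Jun was not tested.

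Markers of vessels held no called gene in limma, against 8.59% called lower and 7.22% called higher among all genes. The 9 endothelial markers summed to 38.3 to 42.9 FPKM in cKO and 39.8 to 47.0 FPKM in WT, and 1 was lower at an unadjusted p under 0.05. The 7 mural and fibroblast markers summed to 29.2 to 31.0 FPKM in cKO and 31.5 to 36.3 FPKM in WT, and 1 was lower at an unadjusted p under 0.05. Limma-voom called 0 of either list. Without WT 2, 2 endothelial markers were called higher.

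Heat shock genes, which respond to handling and stress of tissue, held no called gene among the 14 with a row. Among all genes 8.59% were called lower and 7.22% higher. A difference in handling was not tested. Their sum was 1487 to 1600.3 FPKM in cKO and 1587 to 1649.8 FPKM in WT. At an unadjusted p under 0.05, 1 was higher and 2 were lower in limma, and limma-voom called 1 higher and 1 lower. Without WT 2, 1 was called higher, and without WT 1, 1 was called lower. With a pseudocount of 0.1 or 0.5, or with the length and GC correction, 1 was called lower. Quantile normalisation gave 1 called higher. The replicate block, with or without that correction, gave 1 higher and 2 lower. Hsp90ab1 averaged 590 ± 7.32 FPKM in cKO and 669 ± 8.96 FPKM in WT (limma adjusted p = 0.0529), and Hspa8 averaged 354 ± 20.6 FPKM in cKO and 303 ± 30.8 FPKM in WT (limma adjusted p = 0.0875).

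**Figure D4:**
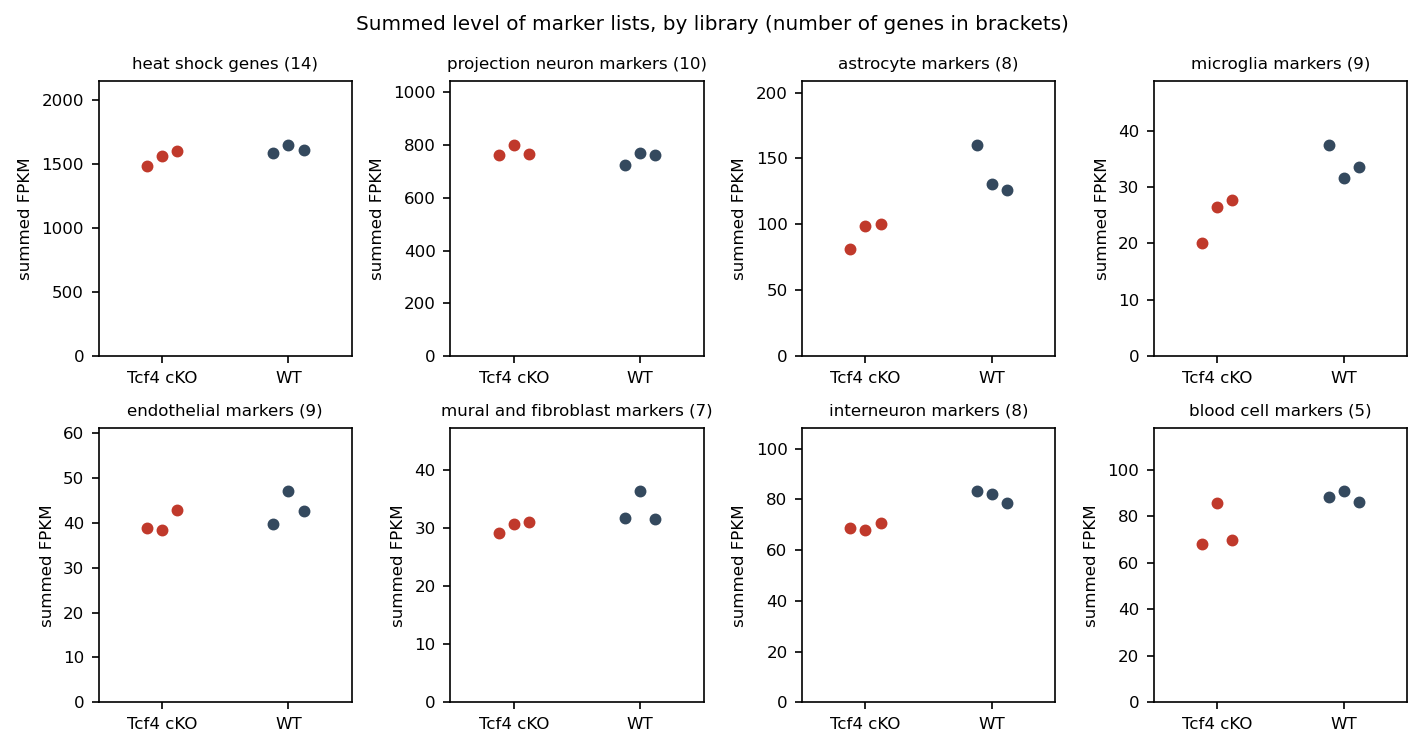
Summed FPKM (vertical axes, each starting at 0) of the heat shock list and of 7 marker lists in the 3 Tcf4 cKO and 3 WT libraries, 1 point per library in replicate order. The cKO points lie under the WT points for the astrocyte, microglia, interneuron, blood cell and mural and fibroblast lists, and the groups overlap for the other 3.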

How the data were processed

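RNA was sequenced from the neocortex of 6 newborn mice (Trizol extraction, TruSeq RNA kit, per the labels' protocols). Values in the deposited table are FPKM computed by the authors, as its header says. The submitters' processing notes name bcl2fastq 1.8.4, STAR 2.5.4b, featureCounts 1.6.1, R 3.4.1 and DESeq2 1.22.1, and build mm10. Which annotation, strand setting and expression filter were used is not given in the sources used here. Beside 15703 genes the table held 139 blank lines, which were skipped.

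Groups and replicate numbers came from the sample titles, whose different animal codes were read as different animals. Limma 3.58.1 (R 4.3.3; mean-variance trend, robust) was fitted to log2(FPKM + 1) of all genes with genotype as the only term. Python 3.11.15 with numpy 2.4.6 and pandas 2.3.3 served for tables, and matplotlib 3.10.9 for figures. Exon lengths and coordinates came from GENCODE M21, which matched 15661 of the gene identifiers. Reads were recovered as FPKM times exon length times the library size at which low values became whole; at that size 94.5% to 95.3% of such values differed from an integer by under 0.1, and at a slightly larger size 16.6% to 19.6% did. Because exon lengths may differ from the authors', these reads served only for depth and for 1 alternative fit. Median-ratio size factors computed from the deposited FPKM were 1.003 in every library.

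The members and lists were chosen with earlier results of these data known. The text names all 7 members and, from each other list apart from cell markers, up to 4 called genes per direction with the smallest p; further called genes, those of the Egr and pentraxin families, and Npas4, Dusp1, Gadd45b, Zfp36 and Bdnf were chosen after their values were seen. Markers of hippocampus, striatum and thalamus summed to 22.0 to 28.5 FPKM in cKO and 26.0 to 27.7 FPKM in WT. Of these 6 markers Ppp1r1b was called lower (3.43 ± 0.307 FPKM in cKO and 5.88 ± 1.36 FPKM in WT, limma adjusted p = 0.0105, and 0.0507 without cKO 1). Alternatives were other pseudocounts, a filter on low values, other scalings, a length and GC correction, a replicate block, limma without trend, limma-voom and leaving out each library.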

Additional observations from a re-analysis of the deposited data

How the results depend on the processing

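The calls of Jun, Arc and Nptx2, and the lack of a call for Junb and Homer1, held under every alternative that could be run (16 each, and 15 for Arc, which falls under the filter of at least 1 FPKM, as does Fos). The limma adjusted p ranged from 0.00199 to 0.0478 for Jun, 0.00125 to 0.0171 for Arc, 0.00103 to 0.0176 for Nptx2, 0.139 to 0.805 for Junb and 0.0561 to 0.387 for Homer1. Leaving out 1 library gave log2 changes of −1.21 to −0.69 for Egr1 (limma adjusted p of 0.00214 to 0.0568) and −0.40 to −0.14 for Fos (0.0289 to 0.426). Over all genes, leaving out 1 library gave 544 to 1572 genes called higher and 830 to 1517 called lower, against 1134 and 1349 with all 6. The lowest counts came without WT 1 (544 and 830), cKO 1 (566 and 830) and cKO 2 (578 and 839). The cause was not tested. Hsp90ab1 reversed its log2 change to 0.063 under quantile normalisation (limma adjusted p = 0.472). With the replicate number as a block, 1274 genes were called higher and 1541 lower. No call among the 7 genes changed with it (Egr1 limma adjusted p = 0.00801, Fos 0.0892). The labels do not state that the numbers pair animals, so the numbers were not taken as pairs. Same-numbered libraries deviated from their group means with correlations of −0.046, 0.0998 and −0.048. Deviations from means of 3 libraries are not independent, so these correlations cannot decide whether animals were paired. Arc and Fos rested on the fewest reads of the 7 genes, 9 to 59 and 12 to 46 per library.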
